A study of Mus musculus with 10 samples.

Results

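Heat-shock proteins and molecular chaperones were represented by 91 of the 24453 genes in the count table. A gene was a member if its symbol began with Hsp or Dnaj, began with Cct followed by a digit, or was one of *Bag1* to *Bag6*, *Hsf1* or *Hsf2*, and the proteoglycan gene *Hspg2* was left out. The rule used symbols and no measured value. RNA-seq libraries came from 5 male *Fezf2-Gfp* mice of the line (Zfp312-EGFP)CO61GsatMmnc, hemizygous on a Swiss Webster background, in which GFP is driven by *Fezf2* regulatory elements. The retrograde tracer CTB647, cholera toxin subunit B with an Alexa dye, was placed in the left primary motor cortex (M1) at postnatal day 23 to 25, and layer 5 of the right M1 was dissected at postnatal day 28 to 32, dissociated with papain and sorted by FACS. *Fezf2+ve* intratelencephalic projection neurons (IT-PNs) carried GFP and the tracer, *Fezf2−ve* IT-PNs carried the tracer without GFP, and each of the 5 animals gave 1 library of each type. The reporter and the tracer limit these groups, since GFP reports a transgene and the tracer labels only neurons that project to the injected side.

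Chaperones hold unfolded or partly folded proteins and help them to reach or regain their shape. HSP70 proteins bind short exposed stretches under the control of J-proteins, which bring clients and drive ATP hydrolysis, and of exchange factors such as HSP110 and BAG proteins, whereas HSP90 acts later on near-native clients and the ring-shaped chaperonins enclose theirs. Heat-shock factors switch on the inducible members during protein stress, while the constitutive members are abundant in neurons, where some of them also serve synaptic vesicle cycling.

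Between 89138 and 217738 reads per library were counted on genes, and 3 reads, taken as the detection floor, corresponded to 13.8 to 33.7 CPM (counts scaled to all gene reads of a library). The libraries were amplified by PCR and read without molecular identifiers, so that reads are not separate molecules and floors and intervals cover counting error only. In bulk samples such as these, fewer cells of a type and less RNA per cell cannot be told apart. *Fezf2+ve* library 4 stood apart, with 3990 genes detected, the fewest of the 10 libraries. *Fezf2+ve* library 1 was unusual in another way, because *Sema6a* held 29.8% of its gene reads and the ERCC spike-in took 46.7% of its reads on genes and spike-in together. *Fezf2+ve* library 2 and *Fezf2−ve* library 4 stood out in astrocyte markers, as given below.

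The labelled cell type had limited support among its markers. Of 12 markers of cortical projection neurons 11 had at least 1 read, with *Camk2a* as the most abundant (588 reads, 529 of them in *Fezf2−ve* library 3), but *Tbr1* had 0 reads and *Fezf2* itself had 1 read, in *Fezf2+ve* library 5. The summed CPM of these neuronal markers was 703, 464, 263, 39.6 and 113 in *Fezf2+ve* libraries 1 to 5 and 149, 135, 3367, 279 and 78.1 in *Fezf2−ve* libraries 1 to 5. Of their 7 tested genes 0 were called by edgeR, 3 with a fold change above 0 and 4 below. Of 6 interneuron markers 3 had reads, 11 in all with *Gad2* highest at 6, while *Slc32a1*, *Pvalb* and *Vip* were at 0, and none was tested.

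Microglial markers separated the types without overlap. All 12 had reads, *Ctss* the most with 817, and their summed CPM was 254, 177, 93.2, 66.0 and 123 in *Fezf2+ve* against 6420, 4633, 6840, 1646 and 3968 in *Fezf2−ve* libraries. All 12 had a fitted fold change below 0, with a median log2 value of −4.83, and edgeR gave 10 an unadjusted p under 0.05 and called 0, whereas DESeq2 called 9 and edgeR without the block 10, all lower in *Fezf2+ve* IT-PNs. Over all tested genes, edgeR gave 3.89% an unadjusted p under 0.05 and, without the block, called 3.77%. DESeq2 called 5.89% of the genes to which it gave an adjusted p. The marker list was written with earlier results of these data known, so its counts only describe it. Red blood cell markers all had reads, but the 6 globin genes among these 7 formed 3 pairs with identical reads in every library, *Hbb-bs* and *Hbb-b1* the most with 410 each. With each pair entered once they summed to 753, 92.9, 8.47, 0 and 0 CPM in *Fezf2+ve* against 3549, 2805, 184, 241 and 4.59 CPM in *Fezf2−ve* libraries. The 3 distinct globin measurements had a fitted fold change below 0 with an unadjusted p under 0.05 and 0 called by edgeR, and DESeq2 called 1 of them, the pair *Hba-a1* and *Hba-a2*. The part of these other cells in the chaperone values was not tested.

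Glial and vascular markers were uneven between libraries. Astrocyte markers (6 of 7 with reads, *Slc1a2* the most with 1817, *Gfap* at 0) reached 7608 CPM in *Fezf2+ve* library 2 and 3799 CPM in *Fezf2−ve* library 4. Markers of oligodendrocyte precursors (4 of 4, *Pdgfra* the most with 740) were at most 2629 CPM, also in *Fezf2+ve* library 2, and endothelial and mural markers (7 of 7, *Flt1* the most with 26) had 62 reads in all. In none of these 3 lists was a gene called or under an unadjusted p of 0.05 by edgeR, and DESeq2 called 0 as well. Of the tested astrocyte markers 4 had a fitted fold change above 0 and 1 below, with a median log2 value of 1.70. For precursors these values were 3, 1 and 0.88, and for endothelial and mural markers 2, 2 and 0.20.

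Chaperone reads were spread very unevenly over the libraries. Summed over the members they came to 940, 2490, 864, 6953 and 1844 CPM in *Fezf2+ve* libraries 1 to 5 and to 3609, 628, 1245, 289 and 455 CPM in *Fezf2−ve* libraries 1 to 5. The mean was 2618 ± 2515 CPM (SD, n = 5) in *Fezf2+ve* IT-PNs and 1245 ± 1370 CPM (SD, n = 5) in *Fezf2−ve* IT-PNs, and 3 of 5 animals had the higher sum in *Fezf2+ve* IT-PNs. The types overlapped widely, and the high values were those of *Fezf2+ve* library 4 and *Fezf2−ve* library 1. A single gene, *Dnajc24*, gave 856 of the 1054 chaperone reads of *Fezf2+ve* library 4 (81.2%), and without this gene the *Fezf2+ve* mean was 1480 ± 690 CPM (SD, n = 5). Without animal 4 the means were 1534 CPM in *Fezf2+ve* and 1484 CPM in *Fezf2−ve* IT-PNs, and without animal 1 they were 3038 and 654 CPM, so the gap between types depended on single animals. With TMM-scaled library totals in place of all gene reads the means were 3614 and 1119 CPM, and *Fezf2+ve* library 4 was at 12403 CPM. In *Fezf2−ve* library 1, *Hspa8* gave 270 of 606 chaperone reads (44.6%).

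At least 1 read was found for 26, 39, 29, 10 and 41 members in *Fezf2+ve* libraries 1 to 5 and for 46, 25, 38, 28 and 24 members in *Fezf2−ve* libraries 1 to 5. *Fezf2+ve* library 4 detected the fewest members and *Fezf2−ve* library 1 the most, and 2 of 5 animals had more members detected in *Fezf2+ve* IT-PNs.

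**Figure D1:**
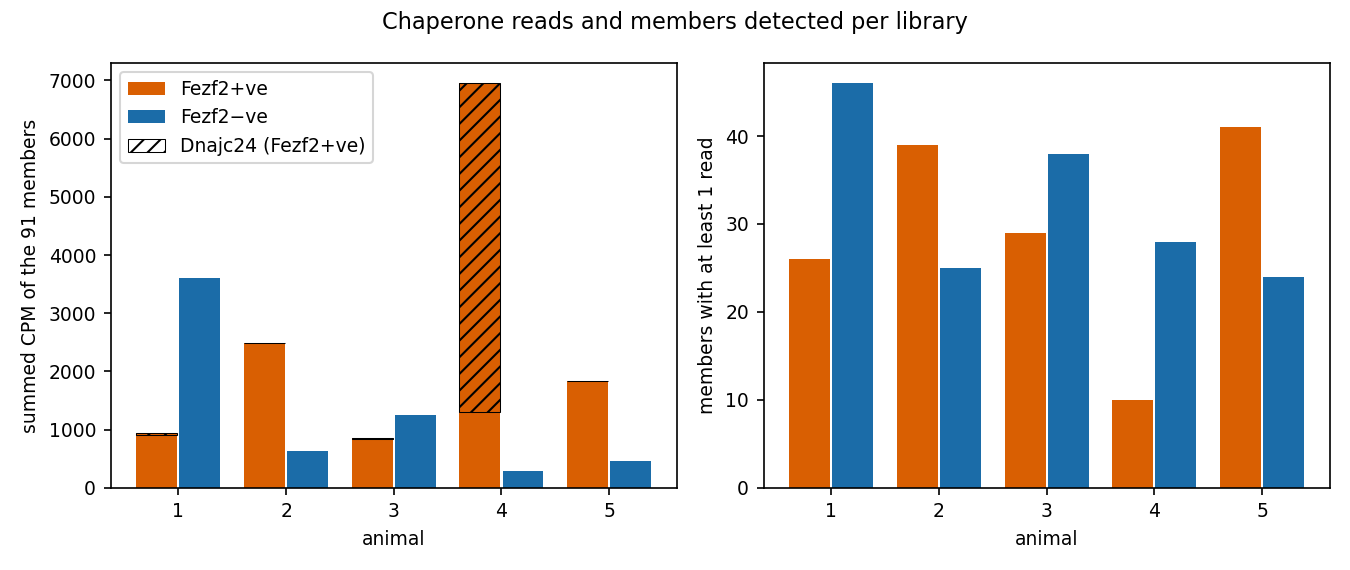
Summed CPM of the 91 members (left) and number of members with at least 1 read (right) in each library, by animal and IT-PN type, with the *Dnajc24* share of the *Fezf2+ve* bars hatched. *Fezf2+ve* library 4 has the highest sum, 6953 CPM, and the fewest members, 10.

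Over the 10 libraries 74 members had at least 1 read and 17 had none (18.7%, against 40.7% of all genes). Among the 36 members with at least 10 reads, the library with the most reads held a median of 51.4% of them, and it held more than 50% in 19 members. Across all 6682 genes with at least 10 reads this median was 51.9%, close to that of the members. Reads in every library were found for *Hspa8* and for *Dnajb6*, a J-protein that limits protein aggregation, and the latter was picked out after its values had been seen.

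**Figure D2:**
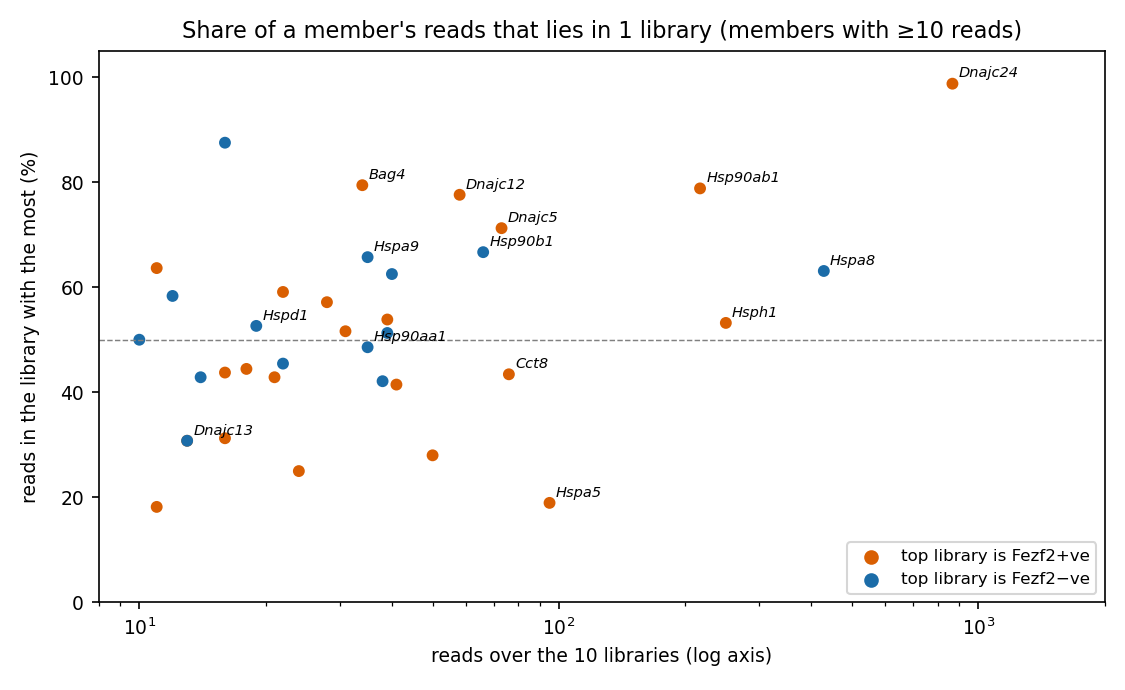
Share of a member's reads that lies in the library with the most, against its reads over the 10 libraries on a log axis, for the 36 members with at least 10 reads, coloured by the type of that library. *Dnajc24* lies highest at 98.7% and *Hspa5* among the lowest at 18.9%, and the dashed line marks 50%.

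No member passed the test between the IT-PN types. Of the members, 42 had at least 10 CPM in at least 2 libraries and were tested with edgeR and the animal as a block. Of these 42, 0 had an adjusted p at or below 0.1, as for all 7409 genes tested (0%). The lowest adjusted p in this fit was 0.993 over all tested genes and 0.998 over the members. The microglial marker *Ctss*, with 10 reads in *Fezf2+ve* and 807 in *Fezf2−ve* libraries, also stayed at 0.993. Its log2 fold change was −6.28 (edgeR unadjusted p = 0.000304). So 0 calls in this fit cannot show that a member is equal between the types. *Dnajc5* was the only member with an unadjusted p under 0.05, 1 of 42, beside 288 of 7409 genes (3.89%). DESeq2 with the block called 98 of the 1664 genes to which it gave an adjusted p (5.89%), and 0 of the 5 members among these. Without the block, edgeR called 279 genes (3.77%), among them 1 member, *Dnajc24*. The fitted log2 fold change of *Fezf2+ve* over *Fezf2−ve* was above 0 for 23 and below 0 for 19 tested members, with a median of 0.16, beside −0.16 over all tested genes. Leaving out the 5 tested members that never exceeded 3 reads in a library gave a median of 0.39 over the other 37. Over all tested members the median ran from −0.39 without animal 2 (14 above 0 and 21 below) to 0.57 without animal 4. It was −0.11 with no filter and 0.91 when 10 CPM was required in 5 libraries. A member could pass the filter through the type in which it was higher, so these counts and medians only describe the tested members. Within animals 1 to 5 the median log2 ratio of CPM + 1 over the tested members was −0.47, 2.55, −0.44, 0.00 and 1.55, so the animals differed in sign.

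**Figure D3:**
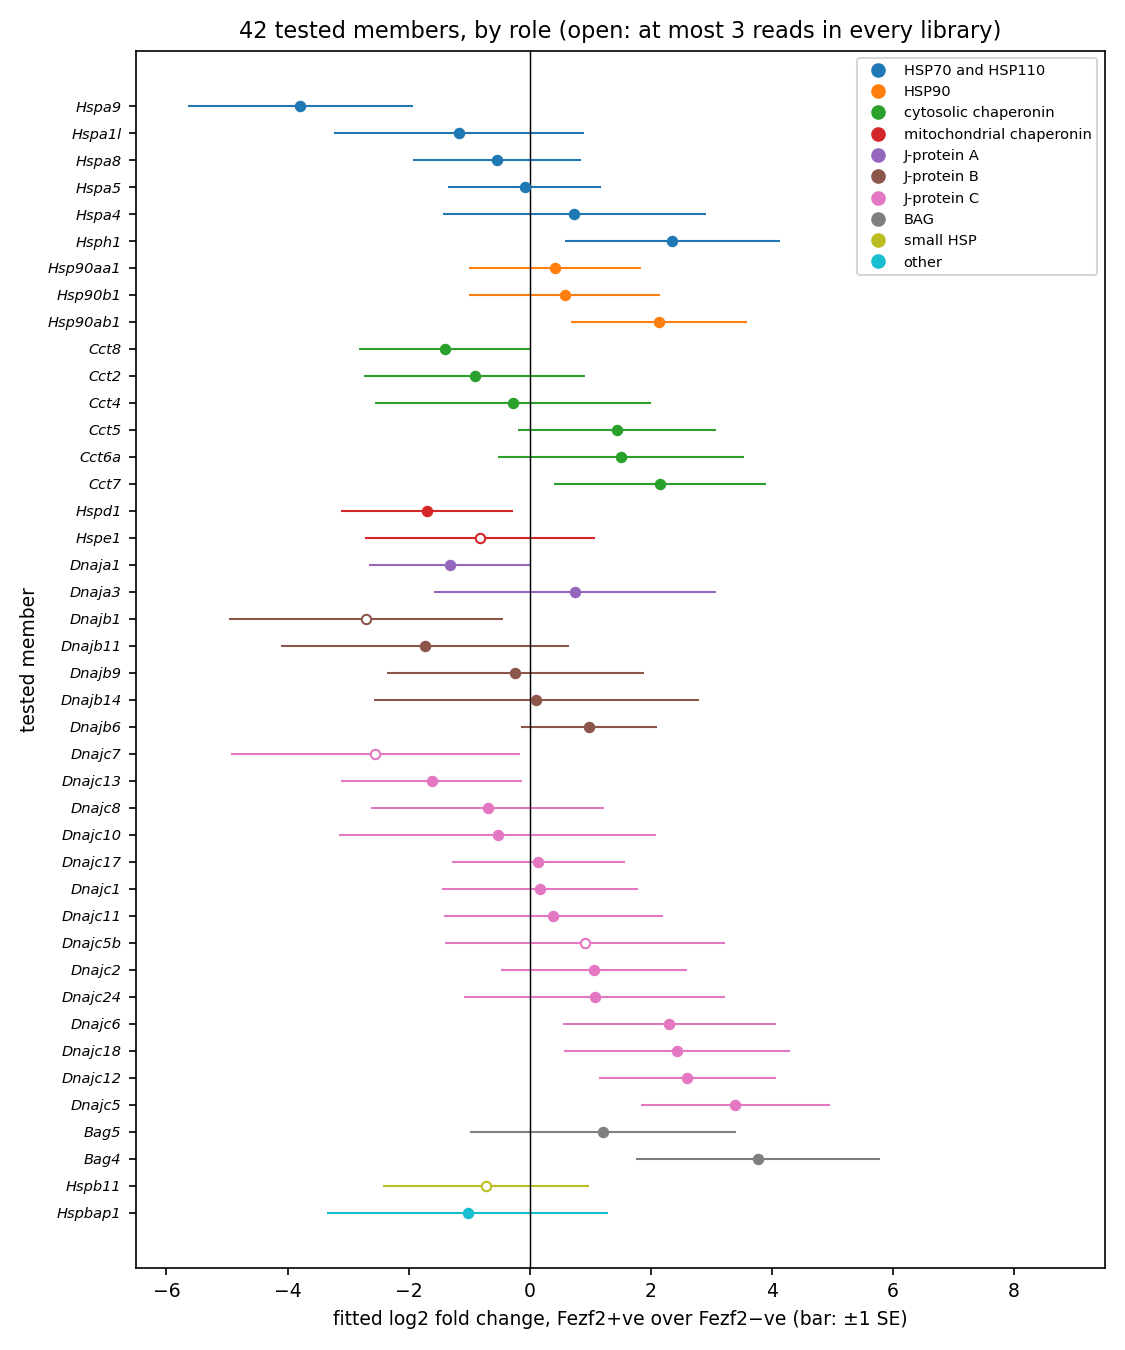
Fitted log2 fold change (*Fezf2+ve* over *Fezf2−ve*) for the 42 tested members, grouped by role, with bars of 1 SE to each side and open circles for members with at most 3 reads in every library. *Bag4* lies furthest to the right at 3.77 and *Hspa9* furthest to the left at −3.79, and edgeR gave both an adjusted p of 0.998.

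Among the 14 HSP70 and HSP110 genes 9 had reads and 6 were tested, 2 with a fitted fold change above 0 and 4 below. *Hspa8* (chr9:40800984-40810087, plus strand, GRCm38) encodes the constitutive cytosolic HSP70, which also removes clathrin coats from vesicles, and its reads numbered 12, 34, 13, 1 and 32 in *Fezf2+ve* libraries 1 to 5 and 270, 5, 45, 7 and 9 in *Fezf2−ve* libraries 1 to 5. *Fezf2−ve* library 1 was far above the others, and the remaining *Fezf2−ve* libraries lay within the *Fezf2+ve* range. The level was 138 ± 113 CPM (SD, n = 5) in *Fezf2+ve* and 401 ± 682 CPM (SD, n = 5) in *Fezf2−ve* IT-PNs, with a log2 fold change of −0.54 (SE 1.38, edgeR adjusted p = 0.998, lower in 3 of 5 animals). This sign rested on animal 1, without which the log2 fold change was 0.28.

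*Hspa5* encodes BiP, the HSP70 of the endoplasmic reticulum, and no library held more than 18.9% of its reads. It had 13, 11, 5, 0 and 18 reads in *Fezf2+ve* and 15, 7, 15, 9 and 2 in *Fezf2−ve* libraries. Its levels overlapped throughout, at 68.6 ± 46.5 and 61.7 ± 35.0 CPM (SD, n = 5 each), with a log2 fold change of −0.08 (SE 1.27, edgeR adjusted p = 0.998, higher in *Fezf2+ve* in 3 of 5 animals) that turned to 0.58 without animal 4.

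*Hspa9* encodes mortalin, the mitochondrial HSP70, and had the smallest p of the members with a fold change below 0. It was read 0, 1, 0, 0 and 0 times in *Fezf2+ve* libraries 1 to 5 and 6, 1, 1, 3 and 23 times in *Fezf2−ve* libraries 1 to 5. *Fezf2−ve* IT-PNs had the higher CPM in 5 of 5 animals, yet 23 of the 35 reads lay in *Fezf2−ve* library 5, and *Fezf2+ve* library 2 at 9.29 CPM was above *Fezf2−ve* library 3 at 5.93 CPM. Pooled over libraries the CPM ratio of *Fezf2−ve* to *Fezf2+ve* was 27.8, with an exact 95% counting interval of 4.66 to 1130, and 12.1 (1.75 to 519) without *Fezf2−ve* library 5. The fitted log2 fold change was −3.79 (SE 1.86, edgeR adjusted p = 0.998), and it ran from −5.65 without animal 2 to −2.79 without animal 5. The edgeR unadjusted p was 0.0582, and under 0.05 without animal 2 (0.0217), without the block (0.0110), with no filter (0.0448) and with the legacy method (0.0374), with 0 calls of this gene and the lower value in *Fezf2+ve* IT-PNs in each animal used.

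*Hsph1*, an HSP110 that acts as an exchange factor for HSP70 and is heat-inducible, had 4, 12, 3, 0 and 133 reads in *Fezf2+ve* and 90, 1, 0, 0 and 7 in *Fezf2−ve* libraries. *Fezf2+ve* library 5 and *Fezf2−ve* library 1 were both high, and the other libraries of both types were low. Levels were 165 ± 277 CPM in *Fezf2+ve* and 116 ± 235 CPM in *Fezf2−ve* IT-PNs (SD, n = 5 each). The log2 fold change was 2.36 (SE 1.78, edgeR adjusted p = 0.998, higher in 3 animals and lower in 1). Without animal 5 it was 1.05, without the block it was 0.90, and without animal 1 it was 3.78. The edgeR unadjusted p was 0.200, and 0.0273 without animal 1, with 0 calls of this gene.

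All 3 HSP90 genes had reads and were tested, and each had a fitted fold change above 0. *Hsp90ab1* (chr17:45567775-45573271, minus strand), the constitutive cytosolic HSP90, gave 7, 8, 4, 171 and 5 reads in *Fezf2+ve* and 13, 2, 5, 2 and 0 in *Fezf2−ve* libraries. *Fezf2+ve* library 4 alone was high, and the other libraries overlapped between types. The level was 264 ± 483 CPM against 27.8 ± 30.0 CPM (SD, n = 5 each). Its log2 fold change was 2.13 (SE 1.45, edgeR adjusted p = 0.998, higher in 4 of 5 animals). Without single animals it ran from 1.11 (animal 4) to 3.02 (animal 1), and without the block it was 4.09 (edgeR unadjusted p = 0.0130, adjusted p = 0.154).

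*Hsp90aa1*, the inducible cytosolic HSP90, gave 1, 5, 4, 0 and 3 reads in *Fezf2+ve* and 17, 3, 2, 0 and 0 in *Fezf2−ve* libraries. *Hsp90b1*, the HSP90 of the endoplasmic reticulum, gave 1, 15, 3, 0 and 1 reads against 0, 1, 44, 0 and 1. The types overlapped in both genes, with *Fezf2−ve* library 1 the highest for *Hsp90aa1* and *Fezf2−ve* library 3 for *Hsp90b1*. Mean levels were lower in *Fezf2+ve* IT-PNs, at 20.7 ± 19.0 against 29.4 ± 42.5 CPM for *Hsp90aa1* and 35.6 ± 58.8 against 55.3 ± 115 CPM for *Hsp90b1* (SD, n = 5 each). The fitted log2 fold changes had the other sign, 0.42 (SE 1.42) and 0.58 (SE 1.58), and each changed sign in the fit without the block and when some single animals were left out.

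The cytosolic chaperonin folds actin and tubulin in a double ring, and 8 of the 9 genes in this group had reads. *Cct8*, which encodes one of its subunits, had the most, with 0, 33, 2, 0 and 2 reads in *Fezf2+ve* and 16, 10, 3, 3 and 7 in *Fezf2−ve* libraries. *Fezf2+ve* library 2 held the highest value, but 4 of 5 animals had the higher level in *Fezf2−ve* IT-PNs. The log2 fold change was −1.40 (SE 1.42, edgeR adjusted p = 0.998). It was −2.43 without animal 2, −0.70 without animal 1 and 0.0026 without the block. Of the 6 tested genes of this group 3 lay above and 3 below 0. *Cct8* overlaps *Usp16* (12 reads) by 192 bp on the opposite strand, one of 26 members that overlap another counted gene, and whether counting took account of strand is not given.

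In mitochondria *Hspd1* and *Hspe1* encode the chaperonin HSP60 and its lid HSP10. *Hspd1* had 1, 0, 1, 0 and 1 reads in *Fezf2+ve* and 10, 2, 2, 1 and 1 in *Fezf2−ve* libraries. Only *Fezf2−ve* library 1 passed the floor, although 4 of 5 animals had the higher CPM in *Fezf2−ve* IT-PNs. Pooled over libraries the CPM was 4.36 times as high in *Fezf2−ve* IT-PNs (exact 95% counting interval 1.25 to 23.3), and 2.03 times (0.435 to 12.6) without that library. The log2 fold change was −1.70 (SE 1.42, edgeR adjusted p = 0.998). *Hspe1* never exceeded 2 reads in a library. These 2 genes lie head to head, overlap by 112 bp, and share a promoter.

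J-proteins made up the largest group, with 4 genes of type A, 13 of type B and 28 of type C, of which 4, 11 and 24 had reads. Of the 14 tested type C genes 10 had a fitted fold change above 0 and 4 below, with a median log2 value of 0.65 and 0 called. The 2 tested type A genes lay 1 above and 1 below 0 (median −0.29). The 5 tested type B genes lay 2 above and 3 below (median −0.24), and 0 of either type were called. *Dnajc5* (chr2:181520485-181555133, plus strand) encodes cysteine string protein, a J-protein of synaptic vesicles that works with *Hspa8* on SNARE proteins, and had 4, 2, 9, 0 and 52 reads in *Fezf2+ve* and 3, 0, 0, 0 and 3 in *Fezf2−ve* libraries. *Fezf2+ve* values were the higher in 4 animals and equal at 0 in animal 4, and the types still overlapped, as *Fezf2+ve* library 4 was at 0. Levels were 76.9 ± 104 CPM in *Fezf2+ve* and 6.33 ± 8.79 CPM in *Fezf2−ve* IT-PNs (SD, n = 5 each). The log2 fold change was 3.40 (SE 1.56, edgeR unadjusted p = 0.0434, adjusted p = 0.998, higher in 4 animals). Without animal 5, whose *Fezf2+ve* library held 71.2% of the reads, it was 2.86 with an edgeR unadjusted p of 0.165, higher in the other 3 animals with reads. The edgeR unadjusted p was also above 0.05 without animal 2 (0.0819) and without animal 3 (0.130, log2 fold change 2.71), each with 3 animals higher, and with no filter (0.0536), and DESeq2 gave 0.0656.

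*Dnajc24* (chr2:105966709-106003549, minus strand) encodes a J-protein of the diphthamide pathway and had the most reads of any member before scaling by length, 867. Its reads were 3, 0, 2, 856 and 0 in *Fezf2+ve* and 1, 1, 3, 0 and 1 in *Fezf2−ve* libraries. Every library but *Fezf2+ve* library 4 was at or under the floor of 3 reads, so its total is that of 1 library. With the animal as a block its log2 fold change was 1.07 (SE 2.15, edgeR adjusted p = 0.998, higher in 2 of 5 animals). Without the block it was 8.04 (edgeR adjusted p = 0.0931), the call named above, and without animal 4 it was −0.35. Over all settings the adjusted p by edgeR or DESeq2 ran from 0.0931 to 1.

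*Dnajc12*, a co-chaperone of the aromatic amino acid hydroxylases, had 2, 45, 1, 2 and 3 reads in *Fezf2+ve* and 3, 1, 1, 0 and 0 in *Fezf2−ve* libraries. Outside *Fezf2+ve* library 2 no library passed 3 reads, and the log2 fold change was 2.61 (SE 1.46, edgeR adjusted p = 0.998, higher in 4 of 5 animals) and 1.79 without animal 2. *Dnajc13*, a J-protein of endosomes, had 1, 0, 0, 0 and 2 reads against 2, 1, 1, 2 and 4, a pooled CPM ratio of 2.72 for *Fezf2−ve* over *Fezf2+ve* (exact 95% counting interval 0.702 to 15.4). Its CPM was the higher in *Fezf2−ve* IT-PNs in 5 of 5 animals, and its log2 fold change was −1.61 (SE 1.50, edgeR adjusted p = 0.998). *Dnajc7*, which binds both HSP70 and HSP90, had 0 reads in all *Fezf2+ve* libraries and 4 in *Fezf2−ve* libraries, 3 of them in library 3. Both types were at or under the floor, so no fold is given, and the gene overlaps *Cnp* (142 reads) on the opposite strand.

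**Figure D4:**
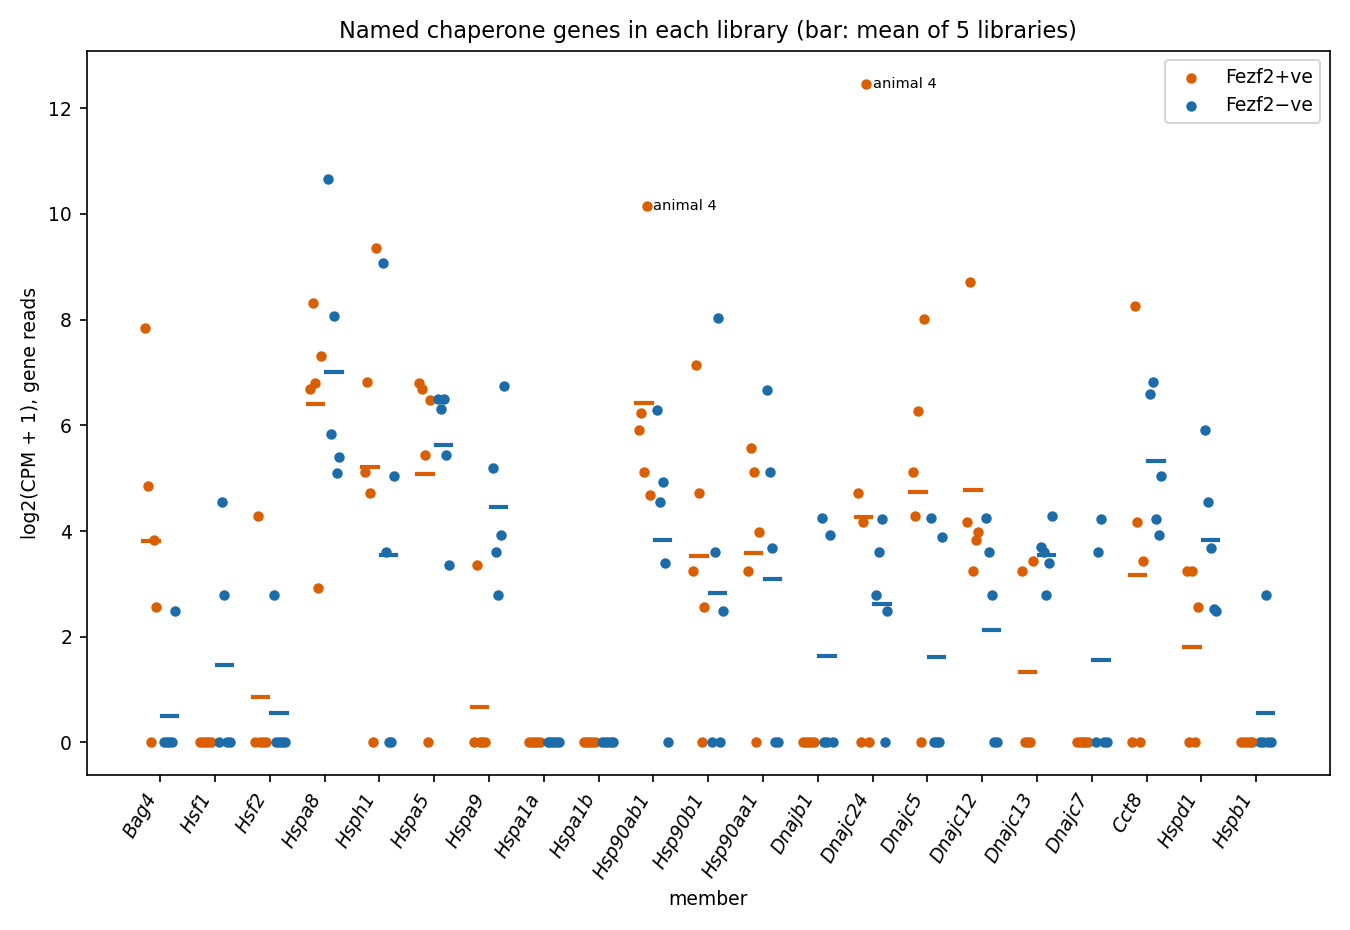
Level of the 21 named members as log2(CPM + 1) in each library, by IT-PN type, with a bar at the mean of the 5 libraries. Points of both types overlap in nearly every gene, and the highest points of *Dnajc24* and *Hsp90ab1* are *Fezf2+ve* library 4.

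The exchange factors of the BAG family, *Bag1* to *Bag6*, all had reads, 52 in total, and 2 were tested. *Bag4*, which also binds the death domain of TNF receptor 1 and silences it, had 27, 3, 0, 2 and 1 reads in *Fezf2+ve* and 0, 0, 0, 0 and 1 in *Fezf2−ve* libraries. *Fezf2+ve* library 1 held 79.4% of the reads, and the *Fezf2+ve* value was the higher in 4 animals. The pooled CPM ratio of *Fezf2+ve* to *Fezf2−ve* was 40.4 (exact 95% counting interval 6.76 to 1642), and 8.83 (1.07 to 406) without that library. The fitted log2 fold change was 3.77 (SE 2.01, edgeR adjusted p = 0.998), and it ran from 2.21 without animal 1 to 5.70 without animal 5. The edgeR unadjusted p was 0.0799, and under 0.05 without animal 5 (0.0247), without the block (0.0109) and with the legacy method (0.0425), with 0 calls of this gene.

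Members that respond most strongly to heat in other cells had few reads, apart from *Hsph1* (250 reads) and *Hsp90aa1* (35 reads). *Hspa1a* and *Hspa1b*, near-identical genes for the inducible HSP70, were at 0 reads in all 10 libraries, under a floor of 13.8 to 33.7 CPM, and how reads that fit both copies were treated was not tested. *Hspb1*, a small heat-shock protein that binds unfolding clients, had 1 read, in *Fezf2−ve* library 3. The 8 genes whose symbol is Hspb and a number had 13 reads together. Of these, 11 were on *Hspb11*, which is in this group by its symbol only and is not counted here as a small heat-shock protein. *Dnajb1*, the J-protein that partners inducible HSP70, had 3 reads in each of *Fezf2−ve* libraries 1 and 4 and 0 elsewhere. The transcription factors *Hsf1* and *Hsf2*, which bind heat-shock elements, had 3 reads each. None of the genes named here, other than *Hsph1* and *Hsp90aa1*, passed the floor in any library, so no fold is given. The 6 inducible members, *Hsp90aa1* and *Hsph1* included, had 5, 17, 7, 0 and 136 reads in *Fezf2+ve* and 110, 4, 3, 3 and 7 in *Fezf2−ve* libraries, and the high libraries were those of *Hsph1*.

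Immediate-early and stress genes had reads in every library. Of 17 such genes 15 had reads, with *Fos* the most abundant at 383 and *Ddit3* and *Gadd45b* at 0, and their summed CPM was 686, 437, 50.8, 191 and 251 in *Fezf2+ve* against 1930, 5149, 1357, 970 and 569 in *Fezf2−ve* libraries. In 5 of 5 animals *Fezf2−ve* IT-PNs had the higher sum, and the log2 fold change of *Fos* was −2.31 (SE 1.38, edgeR adjusted p = 0.998). All 11 tested genes of this list had a fitted fold change below 0, with 6 at an unadjusted p under 0.05 and 0 called by edgeR with the block. *Arc*, singled out after its values had been seen, ran the other way and was not tested, with all of its 23 reads in *Fezf2+ve* library 4, where the whole list had 29. Without the block edgeR called *Atf4* and *Btg2*, both lower in *Fezf2+ve* IT-PNs, and DESeq2 called 4 of the list, *Junb*, *Egr1*, *Btg2* and *Zfp36*, all lower in *Fezf2+ve* IT-PNs. Microglial markers were lower in the same libraries, and the part of these cells in the stress genes was not tested. The stress list was written with earlier results of these data known, so its shared direction and its calls only describe it. Over all tested genes, edgeR gave 3.89% an unadjusted p under 0.05 and, without the block, called 3.77%. DESeq2 called 5.89% of the genes to which it gave an adjusted p.

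Co-chaperones and partners outside the symbol rule were also uneven over the libraries. Of 38 such genes that were counted, 34 had reads, and their summed CPM was 415, 2620, 6649, 204 and 1608 in *Fezf2+ve* and 893, 505, 462, 412 and 321 in *Fezf2−ve* libraries. *Stip1*, which links HSP70 to HSP90, led the list with 915 reads, 680 of them in *Fezf2+ve* library 3 and 160 in *Fezf2+ve* library 2. The log2 fold change of *Stip1* was 2.94 (SE 2.91, edgeR adjusted p = 0.998), and 0 of the 17 tested genes of this list were called or under an unadjusted p of 0.05 by edgeR, 12 with a fitted fold change above 0 and 5 below, and DESeq2 called 0.

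Heat-shock elements were looked for in the RefSeq promoters (GRCm38.p6), which run from 250 bases before to 50 after each start and were matched for 74 members. Without an entry were *Bag4*, *Cct4*, *Dnajc2*, *Dnajc5*, *Dnajc5b*, *Dnajc11*, *Dnajc12*, *Dnajc18*, *Dnajc22*, *Dnajc30*, *Hsf1*, *Hsp90aa1*, *Hsp90ab1*, *Hspa8*, *Hspa9*, *Hspa13* and *Hspb2*. The element was 3 alternating units, GAANNTTCNNGAA or TTCNNGAANNTTC, which are each other's reverse complement and so cover both strands. It was found for 4 of the 74 members (5.41%) and for 179 of all 27025 genes with a promoter entry (0.662%), or in 6.38% of member promoters and 0.603% of all promoters. With only 2 units, GAANNTTC or TTCNNGAA, these shares were 28.4% of members and 17.0% of all genes. The 4 members were *Hspd1*, *Hspe1*, *Dnajb6* and *Hsph1*, and the stretches that hold the elements are shown because they are a sequence feature these chaperones share, with the units and their spacers in capitals.
*Hspe1*, chr1:55088053-55088082, plus strand: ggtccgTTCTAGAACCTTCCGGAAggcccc
*Dnajb6*, chr5:29735844-29735872, plus strand: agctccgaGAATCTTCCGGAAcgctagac
*Hsph1*, chr5:149636280-149636308, minus strand: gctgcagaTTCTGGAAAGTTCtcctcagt
In *Hspe1* the capitals begin at −89 from the start, and the same stretch read on the other strand begins at −144 from a start of *Hspd1*, so these 2 members share this stretch, whose 18 capitals hold 2 overlapping matches. The *Dnajb6* match begins at −46 from the nearer of its starts, and the *Hsph1* match lies after both starts. All 3 stretches lie in annotated exons (GENCODE), the first in an exon of *Hspd1*, the second in exons of *Dnajb6* and *Gm5129* and the third in an exon of *Hsph1*. *Hspa1a*, *Hspa1b* and *Hspb1* held a 2-unit form only and *Dnajb1* neither form, which says no more than that those letters are not in these windows. The 4 members with the longer element had 19, 9, 24 and 250 reads, in the order *Hspd1*, *Hspe1*, *Dnajb6* and *Hsph1*, and edgeR called 0 of them. A match is a description of the sequence and not a site.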

How the data were processed

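All 10 RNA-seq libraries, 5 of each IT-PN type, were analysed. After demultiplexing and trimming, the authors aligned reads against mm10 in TopHat2 2.1.1 and made read counts per RefFlat gene with bedtools 2.26.0 (versions from the submitters' processing notes), and deposited these counts without normalization. Reads in overlapping genes can count for more than one gene, and whether the authors' counts used strand or took in introns is not given in the sources used here, so reads on a gene need not come from spliced transcripts. The authors' deposited DESeq2 table (means, log2 fold changes, p-values) was not used here.

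From the deposited counts CPM was calculated on all gene reads. Testing took genes reaching 10 CPM in 2 or more libraries, by edgeR 4.0.16 in R 4.3.3 (TMM, quasi-likelihood, animal as a block and IT-PN type), with Benjamini-Hochberg adjustment over all tested genes and calls at an adjusted p of 0.1. SE was calculated back from the fold change and F. Pairing comes from the animals. The deviations of same-numbered libraries from their type means correlated at 0.097, −0.0073, 0.0612, 0.0214 and −0.0267. Intervals on pooled reads are exact (Clopper-Pearson). Alternatives were a fit without the block, DESeq2 1.42.0, other size factors and filters, leaving out each animal and, chosen after seeing the data, edgeR's legacy method. The edgeR and DESeq2 code was run on simulated data as a check of the code only. How many changed genes the tests would find at the dispersion of these data is not given here. Other steps used Python 3.11.15 with pandas 2.3.3 and scipy 1.17.1.

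Named members were the 8 with the most reads, the 5 tested members with the smallest p in each direction, 11 textbook inducible or constitutive chaperones and factors, and any member called under a setting. From each other list the gene with the most reads and any called gene were named. The members and lists were chosen with earlier results of these data known. Gene positions are those of GENCODE M21 on GRCm38, counted from 1. Motifs in the member proteins were not analysed here. Marker lists of astrocytes, oligodendrocyte precursors, endothelium and red blood cells were also summed, and 1 marker list was left out because it needs an item withheld for evaluation.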

Additional observations from a re-analysis of the deposited data

Results flagged for a closer look

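In 48 groups of 5 values (library measures, named members and marker lists, each within a type, where any library passed 3 reads), 17 had a highest or lowest library whose gap to the next exceeded 0.71 of the range. Chance gives about 1 in 20 such groups for independent normal values, and the rate for sparse counts like these was not tested. Each flagged value was the highest of its type.

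Among members, *Fezf2+ve* library 4 stood out for *Dnajc24* at 5647 CPM, *Hsp90ab1* at 1128 CPM and the sum of all members at 6953 CPM. *Fezf2+ve* library 2 stood out for *Cct8* at 307 CPM, *Hsp90b1* at 139 CPM and *Dnajc12* at 418 CPM, *Fezf2+ve* library 1 for *Bag4* at 229 CPM, and *Fezf2+ve* library 5 for *Hsph1* at 654 CPM. In *Fezf2−ve* IT-PNs, library 1 stood out for *Hspa8* at 1608 CPM, *Hsph1* at 536 CPM and the member sum at 3609 CPM, and library 3 for *Hsp90b1* at 261 CPM.

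Outside the members, ERCC reads reached 46.7% in *Fezf2+ve* library 1, which also had red blood cell markers at 1507 CPM, in which each globin read stands under 2 gene symbols (753 CPM with each pair entered once). *Fezf2+ve* library 2 had astrocyte markers at 7608 CPM. *Fezf2−ve* library 3 had neuronal markers at 3367 CPM, and *Fezf2−ve* library 4 had astrocyte markers at 3799 CPM. The cause of these values was not tested.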

How the results depend on the processing

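Fits without the animal block (no pairing) called 279 genes, 1 of them a member, and gave 6 members (14.3%, all genes 18.2%) an unadjusted p under 0.05. DESeq2 with the replicate block called 98 genes and 0 members, with 0 members (0%, all genes 4.08%) at an unadjusted p under 0.05. The legacy edgeR method, chosen after seeing the data, gave 3 members (7.14%, all genes 3.97%) under 0.05 and 0 calls. By edgeR with the block, fits with RLE factors or unscaled library sizes, with another filter or none, or without single animals gave 0 calls. At an adjusted p of 0.05 edgeR with the block called 0 genes, and DESeq2 called 35 genes and 0 members. Members under an unadjusted p of 0.05 by edgeR ranged from 0 to 3 without single animals (0% to 8.33%, all genes 2.83% to 3.94%). The member median log2 fold change ran from −0.39 to 0.57 without single animals and was −0.11 with no filter and 0.91 with the stricter filter, so its sign was not stable. With no filter 74 members were tested and with the stricter filter 15, so these medians cover different members. The SD between animals was 1.35 for the median log2 ratio of CPM + 1, a different measure from the fitted fold change. Of 163 fold changes of 14 named members under alternatives, 150 kept their sign and side of the threshold. Reversed values without the block were 0.16 for *Hspa5*, 0.0026 for *Cct8*, −0.75 for *Hsp90b1* and −0.45 for *Hsp90aa1*. Ranges without single animals crossed 0 for *Dnajc24* (−0.35 to 1.75), *Hspa8* (−1.44 to 0.28), *Hspa5* (−0.91 to 0.58), *Hsp90b1* (−0.59 to 2.08) and *Hsp90aa1* (−0.42 to 1.47). Counting only members with at least 3 reads gave 13.6 in *Fezf2+ve* and 13.2 in *Fezf2−ve* libraries, against 29.0 and 32.2 with 1 read and 24.6 and 25.1 at the depth of the smallest library. Pooled ratios without the library with the most reads, also chosen after seeing the data, kept their direction. The interval of *Hspd1* then held 1, and that of *Dnajc13* (2.19, 0.469 to 13.6) held 1 with and without that library. The 2-unit element was held by 28.4% of members. The protein motif search was not run. The cause of these changes was not tested.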
